A study of Danio rerio with 12 samples.

Results

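To investigate how the transcriptional regulators of blood vessels stood in larvae without functional Elmo1, 10 endothelial transcription factor genes were examined: fli1a, fli1b, erg, tal1, lmo2, gata2a, sox7, sox18, nr2f2 and prox1a. They were chosen by name, with earlier results of these data known, and all 10 were found among the 32520 genes of the files. Larvae were collected whole at 120 hours post fertilization (hpf) and their total RNA was isolated for sequencing, with n = 6 samples per genotype and 30 pooled larvae in each sample. The elmo1+/+ samples are wild type at the locus, and the elmo1-/- samples carry a CRISPR/Cas9 frameshift in exon 2 of elmo1, whose protein is a partner of Dock family exchange factors in the activation of the GTPase Rac1. The line was made in the Tg(fli1:EGFP) background, in which regulatory sequence of fli1a drives a green fluorescent protein in endothelial cells; the labels do not give the number of reporter copies in a sample. The sample titles call the elmo1-/- samples knockout and the design text calls them homozygous, while their genotype tag reads hz, which the labels do not explain. The labels name no clutches, so the p-values measure the spread between these pools of larvae only.

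Endothelial cells line blood and lymphatic vessels, and their identity is set early in development by transcription factors of a few families. ETS factors such as Fli1 and Erg bind regulatory elements of most endothelial genes and maintain vessel integrity. Tal1, Lmo2 and Gata2 form a complex that acts in the common precursors of blood and endothelium, SoxF factors (Sox7 and Sox18) act in arteriovenous differentiation, Nr2f2 in venous identity, and Prox1 in lymphatic identity. Most of these genes are also transcribed outside vessels: fli1a in neural crest and cartilage precursors, tal1 and lmo2 in blood cells, gata2a in neurons, nr2f2 in mesenchyme and brain, and prox1a in liver, lens and muscle. In RNA of whole larvae, fewer cells of a type and less RNA per cell cannot be told apart.

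In units of 1e+06, the total expected counts of a sample lay between 20.8 and 21.8 and did not differ between genotypes beyond their spread (two-sided exact permutation test, p = 0.234). A factor had between 41 and 3264 counts in a sample, so that all 10 passed the filter on low counts. The targeted gene, elmo1, reached 121.7 to 143.3 counts per 1e+06 counts (CPM, on TMM-scaled library sizes) in elmo1+/+ and 97.1 to 119.7 CPM in elmo1-/- samples, with no overlap (log2 fold change -0.26, SE 0.059, adjusted p = 0.137 over all genes). All 10 genes were placed in the assembly GRCz12tu, and 0 of the 10 lie on the chromosome of elmo1. Markers of endothelium were present in every sample: kdrl and cdh5, which encode a VEGF receptor and VE-cadherin, reached 17.3 to 23.5 CPM and 26.3 to 34.1 CPM over all samples.

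The level of the factors relative to each other was first compared in TPM, the share of a transcript among 1e+06 transcripts, which are divided by transcript length. fli1a (57.1 ± 11.02 TPM, SD, n = 12) and nr2f2 (54.0 ± 3.68 TPM) stood highest. They were followed by gata2a (21.9 ± 1.62 TPM), prox1a (16.5 ± 1.63 TPM), tal1 (14.2 ± 0.99 TPM), sox18 (9.02 ± 1.12 TPM), sox7 (7.87 ± 0.94 TPM), lmo2 (4.48 ± 0.64 TPM), fli1b (4.15 ± 0.62 TPM) and erg (3.05 ± 0.57 TPM). The ranges over the 12 samples did not overlap between nr2f2 and gata2a, between tal1 and sox18, and between sox7 and lmo2, whereas the other neighbours in this order overlapped. Within elmo1+/+ samples, fli1a (60.4 to 74.3 TPM) lay above nr2f2 (53.3 to 59.3 TPM) without overlap. Within elmo1-/- samples, nr2f2 (47.1 to 55.7 TPM) had the higher mean and overlapped fli1a (41.2 to 55.5 TPM).

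**Figure D1:**
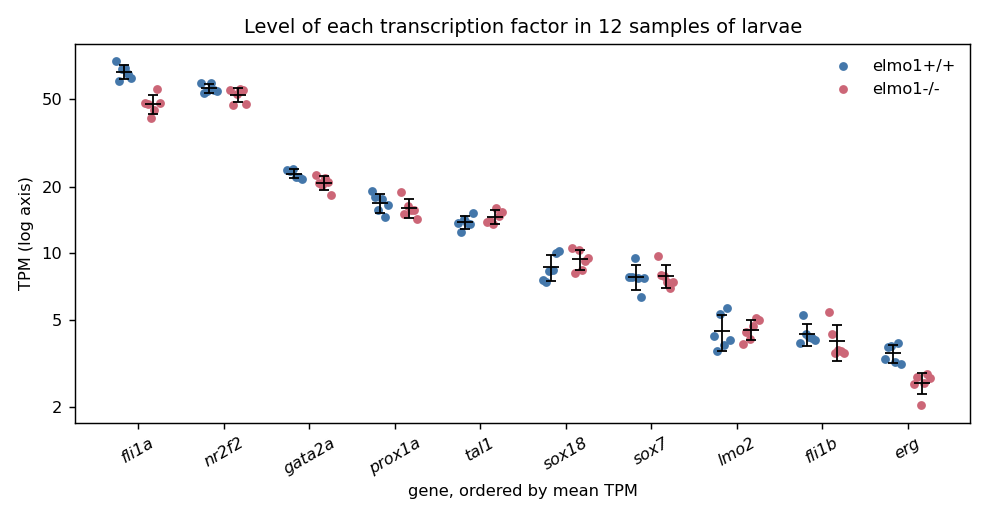
Level of each factor in TPM (log axis) in every sample, by genotype; points are samples, and black bars give mean and SD (n = 6). fli1a and erg are the genes in which all elmo1-/- points lie below the elmo1+/+ points.

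To identify factors regulated in elmo1-/-, edgeR's quasi-likelihood test was applied to all 21830 genes with sufficient counts, and p-values were adjusted by Benjamini-Hochberg over all of them. fli1a was lower in elmo1-/- larvae and was the only factor that passed the threshold of 0.05 (1 of 10, against 0.234% of all genes tested). Counted at an unadjusted p under 0.05 there were 2 of 10, fli1a and erg, against 6.16% of all genes. The same genes were those whose samples did not overlap between genotypes (2 of 10, against 0.513% of all genes). Both were lower, whereas in total 5 of the 10 factors had a log2 fold change below 0, against 48.3% of all genes, and the median log2 fold change of the 10 was -0.0076, against 0.0043 over all genes tested. As the 10 were chosen with earlier results of these data known, these shares are no test of the list.

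**Figure D2:**
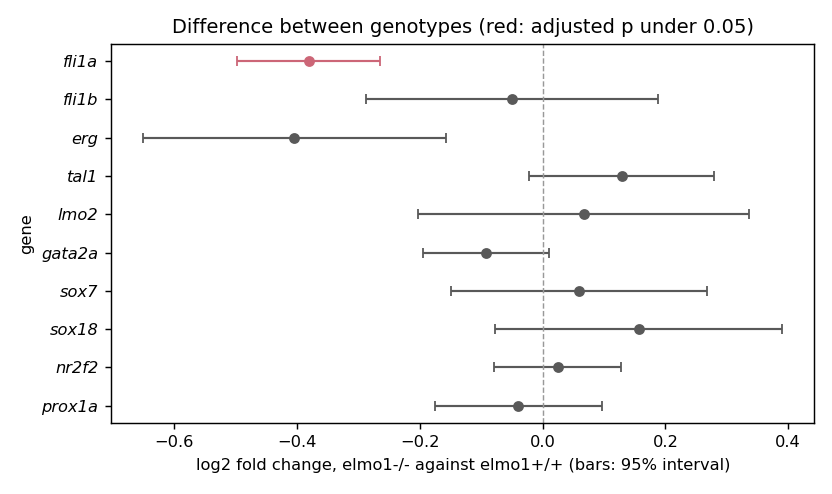
log2 fold change of each factor between elmo1-/- and elmo1+/+ larvae from edgeR, with 95% intervals (n = 6 samples per genotype). fli1a, drawn in red, is at -0.38 and passed the adjusted threshold; the interval of erg also excludes 0, while its adjusted p is 0.386.

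Among the ETS factors, fli1a (ENSDARG00000054632), a regulator of endothelial and early hematopoietic genes, had a lowest value of 101.5, a median of 103.8 and a highest value of 108.6 CPM in elmo1+/+ samples. In elmo1-/- samples the corresponding values were 72.2, 80.1 and 89.6 CPM, so that every mutant sample lay below every wild-type sample. The gene fell by 23.2% (95% interval -29.2% to -16.8%), with a log2 fold change of -0.38 (SE 0.055) and an adjusted p of 0.00447 in edgeR's test. It ranked 22 by p among all genes tested. Mean and SD were 104.8 ± 3.05 CPM in wild-type and 80.4 ± 6.49 CPM in mutant samples (n = 6 each), so that the difference exceeded the spread within either genotype. In TPM, fli1a was at 66.6 ± 5.08 in elmo1+/+ and 47.5 ± 4.76 in elmo1-/- larvae (SD, n = 6 each), again without overlap. The difference in mean log2 TPM was -0.49, larger than the -0.38 from counts. TPM also depend on the transcript length assigned to the gene, which is given with nr2f2 below. They are not TMM-scaled either, and the median over all genes was -0.038 with log2(TPM + 1), against 0.0043 from counts. The parts of length and scaling in the larger difference were not tested.

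erg (ENSDARG00000077304), the ETS factor closest in function to Fli1 in endothelium, was the lowest of the 10 in level. It ranged from 2.84 to 3.62 CPM around a median of 3.23 in elmo1+/+ samples, and from 1.98 to 2.75 CPM around a median of 2.46 in elmo1-/- samples. As in fli1a, the genotypes did not overlap, but the margin between the highest mutant and the lowest wild-type sample was small. The log2 fold change was -0.40 (SE 0.12, 95% interval -0.65 to -0.16), and the adjusted p was 0.386 over all genes in edgeR's test, from 0.00327 before adjustment. Its counts were 62 to 79 in wild-type and 41 to 55 in mutant samples, against 1478 to 2369 for fli1a.

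fli1b (ENSDARG00000040080), the second fli1 copy of zebrafish, did not pass the test. Its elmo1+/+ samples ranged from 7.77 to 11.1 CPM with a median of 8.98, and its elmo1-/- samples from 7.33 to 11.4 CPM with a median of 8.15. The highest sample of each genotype was replicate 2 in elmo1+/+ and replicate 1 in elmo1-/-, and the ranges overlapped over most of their width. The log2 fold change was -0.049 (95% interval -0.29 to 0.19; adjusted p = 0.986, edgeR). How any reads shared between the fli1 copies were assigned by the authors' quantification was not tested. The deposited counts of fli1a were whole or nearly so (2245.99 in elmo1+/+ replicate 3). Those of fli1b were fractional in every sample (159.532 to 242.058).

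Whether fli1a moved relative to these related genes was examined by ratios of CPM within a sample, chosen after the values of the 10 genes were seen. The ratio of fli1a to erg was 32.9 ± 3.996 in wild-type and 33.3 ± 3.45 in mutant samples (SD, n = 6 each; two-sided exact permutation test, p = 0.794). The ratio of fli1a to fli1b was 11.7 ± 1.51 against 9.36 ± 1.803, which did not pass after adjustment over the 3 ratios computed (exact permutation p = 0.0411, adjusted 0.0617). The third ratio set fli1a against the summed CPM of 35 endothelial marker genes. It was 0.189 ± 0.0080 in elmo1+/+ and 0.147 ± 0.012 in elmo1-/- samples and did not overlap (exact permutation p = 0.00216, the smallest possible here; adjusted 0.00649). All 3 ratios use the same fli1a values as the test above and are no independent evidence on the fall. The p of the third ratio largely repeats the missing overlap of fli1a itself. The flat ratio to erg follows from the similar log2 fold changes of fli1a (-0.38) and erg (-0.40). The summed markers themselves were at 537.5 to 568.6 CPM in wild-type and 525.4 to 571.4 CPM in mutant samples, which overlapped almost completely. The sum is weighted by its most abundant genes, such as the EFNB2 copy ENSDARG00000020164 (mean 74.0 CPM in wild-type samples), against kdr (3.98 CPM). It holds all copies under one orthologue name, such as EFNB2, NOTCH1 and CXCR4. The NOTCH1 copies had means of 44.5 and 35.9 CPM in wild-type samples. Whether the sum measures the amount of endothelium, and how much of it comes from other cells, was not tested.

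**Figure D3:**
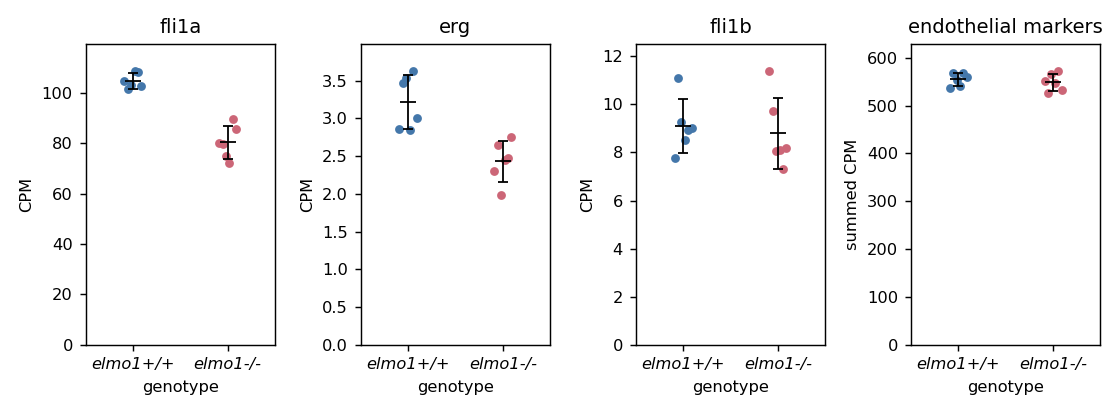
CPM of the ETS genes fli1a, erg and fli1b and the summed CPM of 35 endothelial markers in each sample; points are samples, black bars are mean and SD (n = 6 per genotype), and every axis starts at 0. fli1a falls from a median of 103.8 to 80.1 CPM, while the marker sum spans 525.4 to 571.4 CPM in elmo1-/- and 537.5 to 568.6 CPM in elmo1+/+.

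The genes of the Tal1, Lmo2 and Gata2 complex did not pass the test in either direction. tal1, a basic helix-loop-helix factor of blood and endothelial precursors, ranged from 25.6 to 32.5 CPM (median 27.7) in elmo1+/+ and from 28.2 to 34.7 CPM (median 29.8) in elmo1-/- samples. The difference in log2 was 0.13 (95% interval -0.022 to 0.28, adjusted p = 0.890 over all genes in edgeR), and 2 of 6 mutant samples were above the highest wild-type sample. lmo2, a LIM-domain bridging protein, was at 4.94 to 7.70 CPM (median 5.53) and 5.17 to 7.34 CPM (median 6.39), and its log2 fold change was 0.067 (95% interval -0.20 to 0.34). gata2a, a zinc-finger factor, was at 39.0 to 44.0 CPM (median 42.2) and 37.0 to 41.4 CPM (median 38.9), with 3 of 6 mutant samples below the lowest wild-type sample and a log2 fold change of -0.092 (95% interval -0.20 to 0.011, adjusted p = 0.867, edgeR). Since tal1 and lmo2 are also transcribed in blood, erythroid markers are given beside them. Over all genes, 48.3% had a log2 fold change below 0 and 6.16% an unadjusted p under 0.05. Of 14 erythroid genes tested, 12 had a log2 fold change above 0, with a median of 0.34. In edgeR's test 5 of them had an unadjusted p under 0.05, but none an adjusted p under 0.05. The lowest value was that of slc25a37 (-0.17), a mitochondrial iron carrier, and the highest that of the globin gene hbae1.3 (1.26, adjusted p = 0.377, edgeR). Among genes with a mean log2 CPM of at least 1, the lowest was the SLC4A1 copy ENSDARG00000024560 (-0.088), whereas the more abundant copy ENSDARG00000012881 was at 0.47. The summed level of the erythroid genes lay between 1561 and 2445 TPM in wild-type samples and between 1621 and 3867 TPM in mutant samples. The part of erythroid RNA in the values of tal1 and lmo2 was not tested.

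The SoxF genes, which act together in arteriovenous and lymphatic development, gave overlapping ranges. sox7 was at 11.9 to 17.9 CPM (median 14.1) in elmo1+/+ and 12.3 to 17.6 CPM (median 15.2) in elmo1-/- samples, with a log2 fold change of 0.059 (95% interval -0.15 to 0.27). sox18 was at 7.96 to 11.97 CPM (median 9.29) and 9.61 to 12.4 CPM (median 10.8), and the log2 fold change was 0.16 (95% interval -0.077 to 0.39; adjusted p = 0.938, edgeR). These intervals leave room for changes of up to 20.5% in sox7 and 31.1% in sox18 upward.

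The regulators of vein and lymphatic identity likewise did not pass the test. nr2f2, a nuclear receptor required for venous identity in mice, was at 135.5 to 144.6 CPM (median 140.3) in elmo1+/+ and 132.6 to 159.4 CPM (median 141.1) in elmo1-/- samples, and its log2 fold change was 0.024 (95% interval -0.079 to 0.13). The highest value belonged to elmo1-/- replicate 4, and without it the log2 fold change was -0.011. In TPM, the direction was also reversed, with a difference of -0.10 in mean log2 TPM. With log2(TPM + 1), the median over all genes was also below 0, at -0.038. The deposited count divided by TPM, scaled to the median gene of a sample, measures the transcript length assigned to the gene, and was 1.57 to 1.63 for nr2f2 in wild-type and 1.61 to 1.75 in mutant samples, with 5 of 6 mutant samples above the highest wild-type sample. For fli1a it was 0.93 to 1.06 in wild-type and 0.99 to 1.09 in mutant samples, with 3 of 6 mutant samples above the highest wild-type sample. These comparisons were made after the values were seen. prox1a, a homeobox factor of lymphatic endothelium, was at 34.2 to 41.9 CPM (median 39.3) and 34.3 to 43.0 CPM (median 37.4), and the log2 fold change was -0.040 (95% interval -0.18 to 0.096). In tissues in which prox1a is also transcribed, 4 of 13 hepatocyte, 4 of 9 lens and 7 of 9 slow muscle genes were below 0. Over all genes 48.3% were below 0, and none of these list genes passed the test.

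The surrounding network was followed in lists of related genes, of which none had a member that passed the adjusted threshold (0 of 224 genes tested in 14 lists, against 0.234% of all genes). At an unadjusted p under 0.05 there were 17 of 224, near the 6.16% of all genes, and 2 of 224 did not overlap between genotypes, against 0.513% of all genes. Of the 17, 5 were erythroid markers. Over all genes, 48.3% had a log2 fold change below 0. Among 29 other endothelial transcription factors, 15 had a log2 fold change below 0 and 14 above, with a median of -0.022. Their extremes at a mean log2 CPM of at least 1 were npas4l (0.36, adjusted p = 0.460), which acts at the top of the hemangioblast program in zebrafish, and the FOXC1 copy ENSDARG00000091481 (-0.18, adjusted p = 0.715), a forkhead factor (edgeR). Of 19 partners of Tal1, Lmo2 and Gata2, 9 were below and 10 above 0, with the lowest value in the LDB1 copy ENSDARG00000103158 (-0.30, adjusted p = 0.628) and the highest in tcf4 (0.16, adjusted p = 0.894). Of 20 paralogues of the factors tested, 6 were below and 14 above 0, with a median of 0.062. The lowest was gata2b (-0.52, adjusted p = 0.741, edgeR), the paralogue of gata2a, at a mean log2 CPM of 0.31. Among those with a mean log2 CPM of at least 1, values ran from lmo4a (-0.12) to gata1a (0.35). In the neuron list given for gata2a, 5 of 16 genes were below 0, with a median of 0.019.

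Among the markers of endothelium, 34 were tested, of which 17 were below and 17 above 0, with a median of 0.0040. The lowest was kdr (-0.31, adjusted p = 0.811), a VEGF receptor, and the highest plvapa (0.23, adjusted p = 0.858), a protein of fenestrated endothelium. Of the 34, 4 had an unadjusted p under 0.05 in edgeR's test, against 6.16% of all genes. All 4 were lower: ephb4a, cxcl12b (-0.19), flt4 (-0.18) and tie1 (-0.15), named after their values were seen. The tyrosine kinase receptor ephb4a, a venous marker, did not overlap between genotypes (29.0 to 30.9 CPM against 23.4 to 28.0 CPM), at a log2 fold change of -0.18 and an adjusted p of 0.377 in edgeR's test; it was singled out after its values were seen. The other list gene without overlap was rag1, a recombinase gene of lymphocytes and the lowest of the leukocyte list. It was at 4.40 to 8.21 CPM against 2.35 to 4.37 CPM (log2 fold change -0.75, adjusted p = 0.256, edgeR). Its missing overlap was picked out after its values were seen. Its margin between the genotypes was small. In the same list, rag2 had a log2 fold change of 0.0073 (adjusted p = 0.998, edgeR). In 15 lymphatic and venous genes, 8 were below and 7 above 0, from lyve1b (-0.27) to the dab2 copy ENSDARG00000031761 (0.21). Because fli1a is also transcribed in neural crest and cartilage precursors, that list is given beside it. There, 13 of 18 genes were below and 5 above 0, with a median of -0.077, against 48.3% of all genes below 0. The summed level was 1144 to 1514 TPM in wild-type and 1072 to 1472 TPM in mutant samples. The part of these cells in the fli1a result was not tested.

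**Figure D4:**
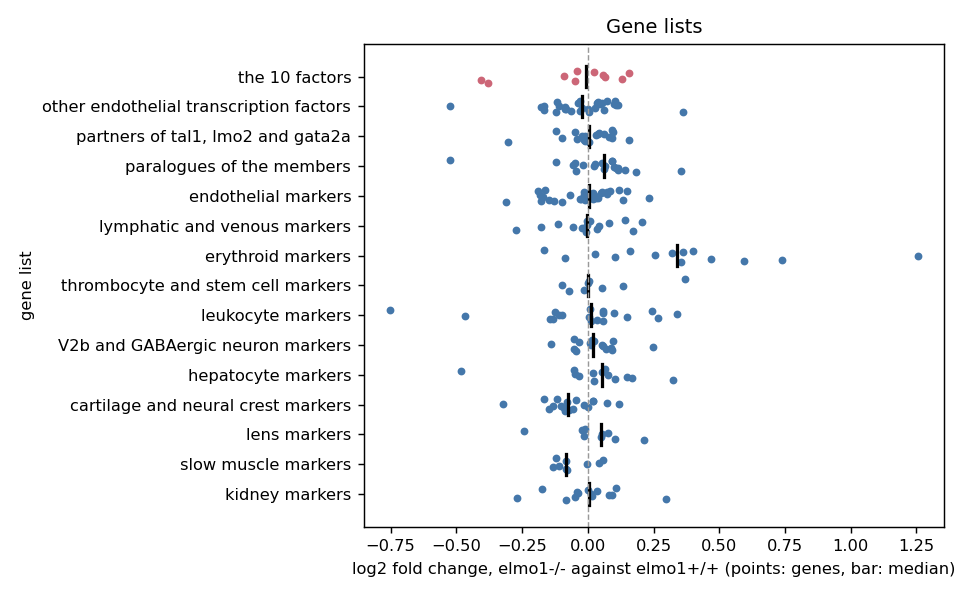
log2 fold change between elmo1-/- and elmo1+/+ larvae for each gene of the 10 factors and of 14 related or cell type lists (points), with the median of each list (bar). The endothelial markers are centred at 0.0040, and the erythroid markers at 0.34.

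The factors were also compared in how they varied among samples, using log2 CPM with the mean of each genotype removed. Over 45 pairs the correlation across the 12 samples had a median of 0.098, and it ran from -0.84 to 0.64. The median was 0.038 with log2(TPM + 1), 0.078 in elmo1+/+ samples alone and -0.14 in elmo1-/- samples alone. The highest was between erg and lmo2 (r = 0.64), and the lowest between lmo2 and prox1a (r = -0.84). The lowest pair was at -0.87 in elmo1+/+ and -0.86 in elmo1-/- samples alone. Some other pairs changed sign, such as fli1a with nr2f2, picked after the values were seen. Its r was -0.37 in log2 CPM, 0.28 with log2(TPM + 1), 0.75 in elmo1+/+ and -0.56 in elmo1-/- samples alone. fli1a and erg, the factors that did not overlap between genotypes, had r = 0.30, which was -0.17 in elmo1+/+ and 0.50 in elmo1-/- samples alone, and fli1a with fli1b had r = -0.23. The points share library and depth, and the correlations are descriptions. The 5 genes most like fli1a by this measure, among 17583 with a symbol and a mean log2 CPM of at least 1, were MYH9 (r = 0.90), zgc:113531 (0.89), si:ch73-74h11.1 (0.87), si:dkey-77f5.11 (0.87) and PGM3 (0.87), and none of them passed the test between genotypes. These 5 were picked as the highest of 17583 correlations over 12 samples. How high r would run among unrelated genes was not tested.

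**Figure D5:**
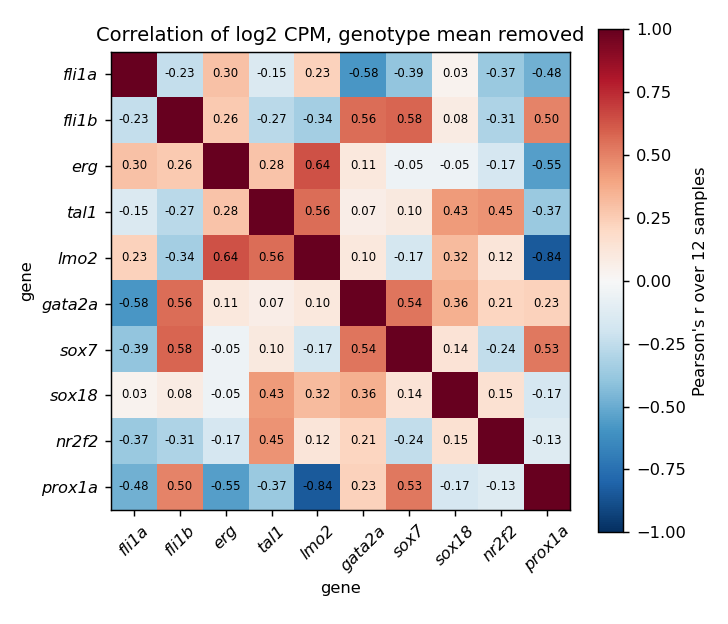
Pearson's r of each pair of factors over 12 samples, from log2 CPM less the genotype mean; red is positive and blue is negative. Cells range from -0.84 for lmo2 and prox1a to 0.64 for erg and lmo2.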

How the data were processed

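Total RNA was isolated from 12 samples, and libraries made from it were sequenced on a BGISEQ-500. Per the submitters' processing notes, reads were handled with Trim Galore 0.6.4 and kallisto 0.4.6 on GRCz11; the annotation release is not given in the sources used here. The authors deposited expected counts, which are estimated and often not whole, and TPM values for 32520 Ensembl genes. The expected counts were rounded to whole numbers. edgeR 4.0.16 (R 4.3.3; filterByExpr with minimum count 10, TMM, quasi-likelihood test on genotype, Benjamini-Hochberg over 21830 genes, threshold 0.05) gave the comparison, which was tested on simulated data; log2 CPM used a prior count of 2. Intervals are 95%. Symbols came from a table naming 89.8% of the genes; fli1a and fli1b were told apart by RefSeq synonyms (FLI1 and fli1rs), a step set after the names, and before any test, were seen. Some lists hold all copies under one orthologue name. The members and lists were chosen with earlier results of these data known. Named list genes are those passing the threshold and the highest and lowest log2 fold change at a mean log2 CPM of at least 1. Genes named outside this rule were kdrl, cdh5, slc25a37, gata2b, the SLC4A1 copy ENSDARG00000012881, the EFNB2 copy ENSDARG00000020164 and the NOTCH1 copies. Also outside it, and named after their values were seen, were ephb4a, cxcl12b, flt4, tie1 and rag2. Alternatives were other normalizations and filters, DESeq2 1.42.0, limma 3.58.1 on counts and on log2(TPM + 1) or log2(TPM + 0.1), a replicate block and leaving out each sample. Permutation tests, ratios and correlations were computed in Python 3.11.15 with pandas 2.3.3 and NumPy.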

Additional observations from a re-analysis of the deposited data

Results flagged for a closer look

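The nr2f2 level of elmo1-/- replicate 4, at 159.4 CPM, stood apart from the other 5 elmo1-/- samples, which lay between 132.6 and 141.4 CPM. It was the only one of 20 groups (10 factors in both genotypes) with such a sample, and chance gives about 1 in 20.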

How the results depend on the processing

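fli1a passed the threshold in 21 of 21 alternatives, with log2 fold changes from -0.49 to -0.38 and adjusted p from 2.8e-08 to 0.0105 in the 9 that kept all samples, and from -0.41 to -0.35 and 0.00142 to 0.0176 on leaving out each sample. erg passed in 0 of 21 (adjusted p 0.149 to 0.665), and the number of factors called was 1 throughout. With log2(TPM + 1) and log2(TPM + 0.1), the median of the factors was -0.084 and -0.091 (all genes -0.038 and -0.044), and nr2f2 turned to -0.099 and -0.10. nr2f2 was -0.011 without elmo1-/- replicate 4, and fli1b was 0.015 without elmo1+/+ replicate 2; leaving out each sample gave -0.011 to 0.042 for nr2f2, -0.14 to 0.015 for fli1b, 0.0055 to 0.13 for sox7, 0.012 to 0.15 for lmo2, -0.081 to -0.012 for prox1a (none of them called) and -0.038 to 0.015 for the median. The cause was not tested. In elmo1+/+ samples alone, 6 neighbours in the TPM order did not overlap. Over all genes, DESeq2 called 97 against 51. The replicate numbers were not taken to pair the samples, and the labels name no clutches. Same-numbered deviations correlated at -0.033 to 0.30. In replicates 2, 3 and 4, the samples of both genotypes correlated best with their own number in the other genotype. The same held for elmo1+/+ replicate 6, but not for the remaining samples. Whether samples of 1 number share a batch was not tested. With the replicate block 60 genes were called, and fli1a was at -0.38 (adjusted p = 0.0105, edgeR). The smallest count of a factor in a sample was 41, for erg, and its effect on that call was not tested.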
